A study of Mus musculus with 12 samples.

Results

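The small leucine-rich proteoglycans are a family of secreted matrix proteins, and 10 of their genes were followed here in RNA-seq of cultured mouse astrocytes: *Epyc*, *Ogn*, *Dcn*, *Aspn*, *Bgn*, *Lum*, *Kera*, *Fmod*, *Omd* and *Prelp*. They were taken by gene name from a table of 18903 genes, all 10 were present, and all 10 passed the filter on low counts. The astrocytes came from the brains of mice at postnatal day 1 (P1), P6 or P8, with 2 libraries, labelled as biological replicates, for each of 6 groups and 12 libraries in all. WT stands for hGFAP-cre::*Rack7*+/+ and cKO for hGFAP-cre::*Rack7* fl/fl, so both genotypes carried a Cre driven by the human GFAP promoter, which acts in neural stem cells of the pallium and in the neurons and glia made by them. The tissue was freed of meninges and cultured. The cultures were shaken against microglia and oligodendrocytes and then grown on until confluent, but no sort of the cells is described. The comparisons asked how transcript levels differed with the loss of RACK7, a chromatin reader also called ZMYND8, and with the age of the animal at dissection.

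Each of these proteins has a core of leucine-rich repeats that lies along collagen fibrils and sets their thickness and spacing, and most carry chondroitin, dermatan or keratan sulfate chains. By sequence, decorin (*Dcn*), biglycan (*Bgn*) and asporin (*Aspn*) form class I, lumican (*Lum*), keratocan (*Kera*), fibromodulin (*Fmod*), osteomodulin (*Omd*) and PRELP form class II, and epiphycan (*Epyc*) and osteoglycin (*Ogn*) belong to class III. Decorin and biglycan also bind growth factors of the TGF-beta family, and decorin can dampen the EGF receptor. In the brain, decorin and lumican are known best from the fibroblasts of the meninges and of large vessels, and epiphycan is known from the growth plate cartilage.

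The genes lie in 3 groups and a lone gene on GRCm38 (GENCODE vM21). *Dcn*, *Lum*, *Kera* and *Epyc* follow each other on the plus strand of chromosome 10 at chr10:97479609-97682454, a stretch of 202.8 kb. *Aspn*, *Omd* and *Ogn* follow each other on the plus strand at chr13:49544443-49624501, within the span of *Cenpp*, a centromere protein gene on the minus strand. *Prelp* lies on the minus strand and *Fmod* on the plus strand at chr1:133910304-134048277, and *Bgn* is at chrX:73483602-73495933. All 10 are protein-coding genes. Exons of *Epyc* overlap an exon of the antisense lincRNA *Gm10754*, and exons of *Aspn* overlap *Cenpp*. The strand setting of the counting is not stated in these sources, and reads of the overlapping pairs cannot be told apart.

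RefSeq (GRCm38.p6) gives promoter sequences for 8 of the 10 genes, in 9 entries, since *Epyc* has 2 annotated starts. The 250 bases before the start are shown for *Epyc* and *Aspn*, which moved together at P6 and P8, and for *Prelp*, which moved the other way. Capitals mark matches, on either strand, to letters known as motifs of promoters. TATAAA stands for the box named after it, CCAAT for the site of factor NF-Y, GGGCGG for that of the SP factors, TGANTCA for that of AP-1, CTTTGAT for that of the TCF/LEF factors and TGTGGT for that of the RUNX factors.
*Epyc*, first start, chr10:97643818-97644067, plus strand: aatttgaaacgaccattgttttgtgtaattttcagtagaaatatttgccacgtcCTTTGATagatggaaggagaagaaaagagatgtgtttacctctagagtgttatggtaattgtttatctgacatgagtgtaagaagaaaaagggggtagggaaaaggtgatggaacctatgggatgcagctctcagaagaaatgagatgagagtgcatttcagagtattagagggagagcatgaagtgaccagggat
*Epyc*, second start, chr10:97646853-97647102, plus strand: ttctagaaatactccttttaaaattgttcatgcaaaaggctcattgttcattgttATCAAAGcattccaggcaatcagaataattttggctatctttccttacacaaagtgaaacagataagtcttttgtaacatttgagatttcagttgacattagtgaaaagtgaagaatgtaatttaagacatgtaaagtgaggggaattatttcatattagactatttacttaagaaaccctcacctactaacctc
*Aspn*, chr13:49544193-49544442, plus strand: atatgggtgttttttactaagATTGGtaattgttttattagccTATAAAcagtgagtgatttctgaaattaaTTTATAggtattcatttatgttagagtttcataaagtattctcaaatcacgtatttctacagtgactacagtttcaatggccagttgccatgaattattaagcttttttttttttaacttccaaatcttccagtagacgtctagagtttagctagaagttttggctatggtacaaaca
*Prelp*, chr1:133921402-133921651, minus strand: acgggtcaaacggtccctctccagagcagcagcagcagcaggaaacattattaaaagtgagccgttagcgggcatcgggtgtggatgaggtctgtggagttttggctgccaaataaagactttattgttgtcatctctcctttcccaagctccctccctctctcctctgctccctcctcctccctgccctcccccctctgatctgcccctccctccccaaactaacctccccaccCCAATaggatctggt
CTTTGAT or its reverse complement stood in both *Epyc* windows and in none of the other 7 entries, against 3.21% of 32851 promoters of the same length. *Aspn* held TATAAA on both strands, which 12.4% of all promoters held on at least 1, and CCAAT, which 33.8% held. *Prelp* held CCAAT close to its start. *Bgn* held GGGCGG 3 times, 2 of them overlapping, a motif found in 32.7% of all promoters. The windows of *Epyc* held 2 and 0 CpG dinucleotides, that of *Aspn* 2, that of *Prelp* 5 and that of *Bgn* 7, beside a median of 6 over all promoters. AP-1 letters, found in 6.75% of all promoters, were in none of the 9 windows, and RUNX letters, found in 14.0%, were in that of *Ogn* alone. These matches describe the letters in the windows, and their part in the values below was not tested.

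Library totals lay between 54413504 and 89183250 counts, and 17938 genes were tested. *Zmynd8* itself was read at 136 and 136 CPM (counts scaled to library size by TMM) in the P1 WT libraries and at 213 and 216 CPM in those labelled cKO, at 114 and 116 CPM against 242 and 230 CPM at P6, and at 99.98 and 104 CPM against 160.4 and 171 CPM at P8. The gene count was thus higher under the label cKO on each day (1.57-, 2.05- and 1.62-fold; adjusted p = 3.16e-05, 4.97e-07 and 3.78e-06 in edgeR). A count over the whole gene does not show the floxed exons alone. The study also assayed RACK7 protein by immunoblot and its binding to chromatin by ChIP-seq in WT and cKO astrocytes, measures that were not analysed here, and WT and cKO below mean the libraries labelled so. All 9 astrocyte markers in the table (of 10 listed) reached 1 CPM in every group.

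*Epyc*, a class III member, ranged from no read in 4 libraries to 312 CPM. It was chosen by its own counts in these 12 libraries, and the other 9 as further genes of its family with earlier results of the contrasts in view. The levels of *Epyc* are therefore a description without a test. No read was counted in the P1 WT libraries, and 1.85 and 1.63 CPM were read in the P1 cKO libraries. At P6 the WT libraries had 17.2 and 20.4 CPM and the cKO libraries no read. At P8 the WT libraries had 307 and 312 CPM, from 18273 and 22544 reads, and the cKO libraries 0.750 and 0.476 CPM, from 55 and 40 reads. No WT value overlapped a cKO value of the same day, and the order of the genotypes turned between P1 and P6.

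With a floor of 3 reads over a group with none, which allows up to 0.0213 CPM in P1 WT and 0.0231 CPM in P6 cKO, *Epyc* was at least 81.9-fold higher in cKO at P1 and at least 815-fold lower at P6. At P8 it was 505-fold lower. Within WT it was at least 885-fold higher at P6 than at P1 and a further 16.5-fold higher at P8. Within cKO it was at least 75.5-fold lower at P6 than at P1 and at least 26.5-fold higher at P8 than at P6. By level the groups ran from P8 WT through P6 WT, P1 cKO and P8 cKO to P1 WT and P6 cKO, and only the last pair, both without a read, could not be ordered. The antisense *Gm10754* had 1.19 and 1.81 CPM in P8 WT and 0 and 0.0357 CPM in P8 cKO, and at P6 it had 0.221 and 0.117 CPM in WT and no read in cKO. Since its exon overlaps that of *Epyc*, these reads may belong to either gene.

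**Figure D1:**
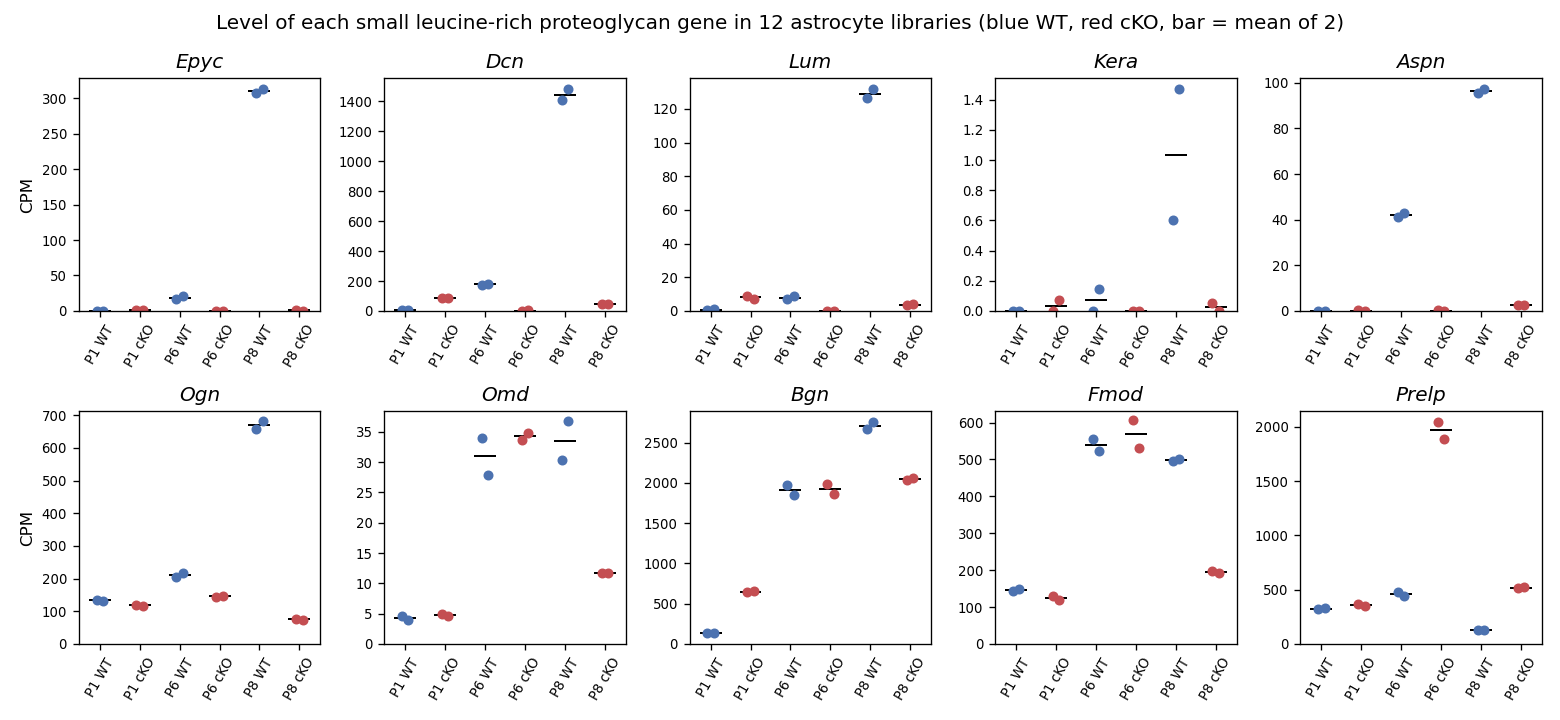
CPM (linear axes from 0, 1 scale per gene) in each of the 12 libraries for the 10 genes; points are libraries, bars are the mean of 2, blue is WT and red is cKO. *Epyc*, *Dcn*, *Lum*, *Aspn*, *Ogn*, *Bgn* and *Kera* have their highest mean in P8 WT (*Epyc* at 307 and 312 CPM). *Prelp* stands highest in P6 cKO. *Fmod* and *Omd* also have their highest mean there, but their P6 cKO libraries overlap those of P6 WT.

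*Ogn* codes for osteoglycin (mimecan), which takes part in collagen fibril growth and bone biology. It was read at 134 and 132 CPM in P1 WT and at 119 and 117 CPM in P1 cKO, and at 204 and 217 CPM in P6 WT and 143 and 148 CPM in P6 cKO. At P8 it stood at 658 and 682 CPM in WT and at 75.3 and 74.6 CPM in cKO. The genotypes did not overlap on any day, and the gap widened with age. *Ogn* fell 8.93-fold in cKO at P8 (log2 fold change -3.16 ± 0.05 SE; adjusted p = 9.31e-10), whereas its differences of -0.18 at P1 and -0.53 at P6 had an adjusted p of 0.0291 and 1.88e-05 but did not reach the fold of 1.5. All p-values come from the quasi-likelihood test of edgeR, adjusted over all genes tested by Benjamini and Hochberg, with n = 2 libraries per group. Each SE was derived from that test, as the log2 difference without its sign over the square root of the F statistic.

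Of class I, *Dcn*, the gene of decorin, differed between the genotypes on each day. It was read at 9.12 and 8.55 CPM in P1 WT and at 89.6 and 89.7 CPM in P1 cKO. At P6 it stood at 174 and 181 CPM in WT against 1.93 and 3.28 CPM in cKO, and at P8 at 1412 and 1480 CPM against 45.7 and 44.7 CPM. The 2 genotypes were far apart on each day, cKO above WT at P1 and below it afterwards. *Dcn* rose 10.1-fold at P1 (log2 3.34 ± 0.16; adjusted p = 2.61e-06), fell 68.1-fold at P6 (log2 -6.09 ± 0.19; adjusted p = 4.96e-08) and fell 32.0-fold at P8 (log2 -5.00 ± 0.17; adjusted p = 5.36e-08). In these bulk cultures, fewer cells of a type and less RNA per cell cannot be told apart.

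*Aspn* codes for asporin, which binds collagen and TGF-beta but carries no glycosaminoglycan chain. Only 4 reads were counted in each P1 WT library and 15 and 5 in the P1 cKO libraries, or 0.0671 and 0.0492 against 0.255 and 0.0878 CPM. It then stood at 41.4 and 42.8 CPM in P6 WT against 0.213 and 0.124 CPM in P6 cKO, and at 95.5 and 97.1 CPM in P8 WT against 2.62 and 2.63 CPM in P8 cKO. From P6 on, every WT library was far above every cKO library. It fell 249-fold at P6 (log2 -7.94 ± 0.28; adjusted p = 9.88e-08) and 36.7-fold at P8 (log2 -5.20 ± 0.22; adjusted p = 1.72e-07), and its P1 difference of 1.57 ± 0.50 did not pass (adjusted p = 0.0943). That difference was 0.61 without P1 cKO replicate 1 and 2.13 without P1 cKO replicate 2. *Cenpp*, whose exons it overlaps, stayed between 2.14 and 3.96 CPM in all 12 libraries.

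*Bgn* codes for biglycan, which also signals through Toll-like receptors when released. It stood at 138 and 131 CPM in P1 WT and at 646 and 654 CPM in P1 cKO, then at 1970 and 1849 CPM in P6 WT and 1983 and 1860 CPM in P6 cKO. At P8 the WT libraries had 2670 and 2758 CPM and the cKO libraries 2042 and 2058 CPM. The genotypes were apart at P1, overlapped at P6 and were apart again at P8, now with cKO below WT. *Bgn* rose 4.84-fold at P1 (log2 2.27 ± 0.05; adjusted p = 1.21e-08). Its difference at P6 was 0.01 ± 0.04 (adjusted p = 0.925), and that at P8, -0.40 ± 0.04 (adjusted p = 8.21e-05), was under the fold of 1.5.

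Of class II, *Lum*, the gene of lumican, followed its neighbour *Dcn* at a lower level. It was read at 0.520 and 0.995 CPM in P1 WT and at 8.87 and 7.35 CPM in P1 cKO. At P6 it had 7.21 and 8.57 CPM in WT and no read in cKO, and at P8 126 and 131 CPM in WT and 3.63 and 3.91 CPM in cKO. The genotypes did not overlap on any day. *Lum* rose 10.7-fold at P1 (log2 3.39 ± 0.25; adjusted p = 8.92e-05), was at least 342-fold lower in cKO at P6 (adjusted p = 2.09e-06) and fell 34.2-fold at P8 (log2 -5.09 ± 0.24; adjusted p = 1.34e-06).

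*Kera*, the keratan sulfate proteoglycan of the cornea, lies between *Lum* and *Epyc* and was near the floor. It had 36 and 106 reads in P8 WT, or 0.605 and 1.47 CPM, and passed the filter only through those 2 libraries. In the other 10 libraries 0 to 10 reads were counted, and 7 of the 12 libraries had none. At P8 the WT mean was 38.0-fold above the cKO mean, from 4 and 0 reads, and the difference did not pass (log2 -5.22; adjusted p = 0.0583). Since the P8 WT libraries alone let *Kera* into the test, its P8 difference is a description. With 1 library left out it ran from -9.12, without P8 cKO replicate 1, where no cKO read was left and the fitted size depends on the prior count, to -4.20, without P8 cKO replicate 2. The depth thus showed *Kera* in P8 WT and little elsewhere.

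*Fmod* codes for fibromodulin, a collagen-binding member abundant in tendon. It stood at 145 and 149 CPM in P1 WT and at 131 and 120 CPM in P1 cKO, and at 557 and 522 CPM in P6 WT and 606 and 530 CPM in P6 cKO. At P8 it stood at 497 and 501 CPM in WT and at 197 and 193 CPM in cKO. The genotypes overlapped at P6 and were furthest apart at P8, where *Fmod* fell 2.56-fold (log2 -1.36 ± 0.07; adjusted p = 5.48e-07). The differences of -0.23 ± 0.07 at P1 (adjusted p = 0.0654) and 0.08 ± 0.07 at P6 (adjusted p = 0.474) did not pass.

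*Omd* codes for osteomodulin, a bone member that binds mineral and collagen. It was read at 4.54 and 3.91 CPM in P1 WT and 5.02 and 4.62 CPM in P1 cKO, and at 34.0 and 27.9 CPM in P6 WT and 33.7 and 34.8 CPM in P6 cKO. At P8 it stood at 30.3 and 36.7 CPM in WT and at 11.6 CPM in both cKO libraries. As with *Fmod*, only the P8 genotypes were far apart. *Omd* fell 2.88-fold there (log2 -1.53 ± 0.13; adjusted p = 1.97e-05), beside differences of 0.19 ± 0.14 at P1 (adjusted p = 0.489) and 0.15 ± 0.13 at P6 (adjusted p = 0.472).

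*Prelp* codes for an arginine- and proline-rich member that anchors basement membranes to connective tissue, and it went the other way. It stood at 320.0 and 327 CPM in P1 WT and at 367 and 353 CPM in P1 cKO. At P6 it stood at 475 and 446 CPM in WT and 2047 and 1887 CPM in cKO, and at P8 at 131 and 133 CPM in WT and 511 and 525 CPM in cKO. The cKO libraries were above WT on each day. *Prelp* rose 4.27-fold at P6 (log2 2.10 ± 0.05; adjusted p = 8.96e-09) and 3.93-fold at P8 (log2 1.97 ± 0.05; adjusted p = 8.92e-09), whereas its P1 difference of 0.16 ± 0.05 did not pass (adjusted p = 0.0783). Exons of *Prelp* overlap the antisense gene *Gm15851*, which was not analysed here.

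**Figure D2:**
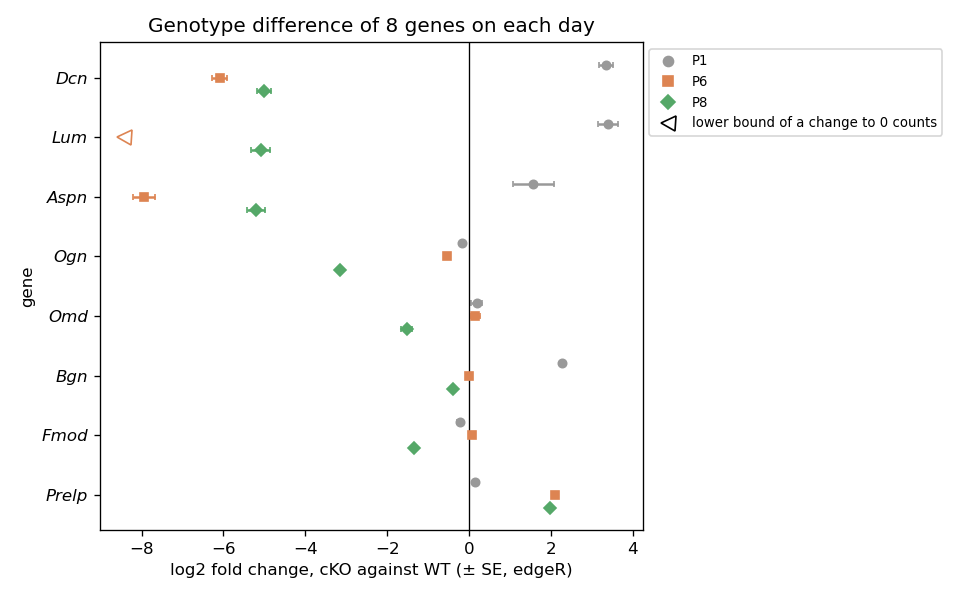
Log2 fold change of cKO against WT (horizontal axis, points with SE derived from the edgeR test) for 8 genes. Grey circles are P1, orange squares P6 and green diamonds P8. The open triangle is the lower bound for *Lum* at P6, where no read was counted in cKO. *Dcn* lies at 3.34, -6.09 and -5.00 on the 3 days, while *Prelp* lies near 0 at P1 and at 2.10 and 1.97 afterwards.

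Leaving *Epyc* out, 3 of the other 9 genes rose in cKO at P1 (*Dcn*, *Lum* and *Bgn*) and none fell, where 4.01% of all genes tested rose and 0.892% fell. At P6, *Prelp* rose and *Dcn*, *Lum* and *Aspn* fell, beside 7.16% of all genes that rose and 6.38% that fell. At P8, *Prelp* rose and 6 genes fell (*Dcn*, *Lum*, *Ogn*, *Aspn*, *Omd* and *Fmod*), beside 11.2% and 8.37% of all genes. *Kera* was called on no day, and *Bgn* not at P6 or P8. On the 3 days in turn, the median log2 fold change of the 9 came to 1.57, -0.53 and -3.16, and that of all genes tested to 0, 0 and 0.01. The genes were chosen with these results known, so the counts describe them and set nothing apart.

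The 3 days were also compared with each other by the difference of the genotype differences. Between P1 and P6 the cKO-minus-WT difference became lower for 5 of the 9 genes and higher for *Prelp*, where 8.19% and 7.12% of all genes tested did so. It changed by -9.43 ± 0.25 (log2) for *Dcn* (adjusted p = 2.04e-08), by -9.51 ± 0.62 for *Aspn* (adjusted p = 9.00e-06), by -2.27 ± 0.06 for *Bgn* (adjusted p = 2.57e-08), by -0.36 ± 0.06 for *Ogn* (adjusted p = 0.00338) and by 1.94 ± 0.07 for *Prelp* (adjusted p = 1.23e-07). *Lum* passed as well (adjusted p = 1.24e-06), with a fitted size that has no fixed value because P6 cKO had no read.

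Between P6 and P8 the difference became higher for *Dcn*, *Aspn* and *Lum*, that is, less far below WT, and lower for *Ogn*, *Omd*, *Bgn* and *Fmod*, where 12.6% and 8.83% of all genes did so. *Dcn* changed by 1.09 ± 0.22 (adjusted p = 0.00705) and *Aspn* by 2.75 ± 0.34 (adjusted p = 0.000450). *Ogn* changed by -2.63 ± 0.06 (adjusted p = 3.88e-08), *Omd* by -1.67 ± 0.18 (adjusted p = 0.000194), *Fmod* by -1.43 ± 0.09 (adjusted p = 8.48e-06) and *Bgn* by -0.41 ± 0.06 (adjusted p = 0.00126). For *Prelp* the change of -0.12 ± 0.07 did not pass (adjusted p = 0.246). From P1 to P8 the difference became lower for 7 genes and higher for *Prelp*, beside 11.7% and 14% of all genes, and *Kera* did not pass.

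The genes also differed between cultures from animals of different ages. Each age was dissected and cultured separately, so the age of the animal and the culture cannot be told apart. WT and cKO cultures came from different animals too, and the labels tie no library to an animal or culture. Differences of genotype and of culture or dissection therefore cannot be told apart either. From P1 to P6 in WT, 7 of the 9 rose and none fell (12.2% and 10.9% of all genes), led by *Aspn* at 725-fold (log2 9.49 ± 0.31; adjusted p = 2.50e-08), *Dcn* at 20.1-fold and *Bgn* at 14.2-fold. *Prelp* rose 1.42-fold, under the threshold. From P6 to P8 in WT, *Dcn*, *Lum*, *Ogn* and *Aspn* rose by 8.14-, 16.3-, 3.18- and 2.29-fold and *Prelp* fell 3.49-fold (8.66% and 10.3% of all genes rose and fell). *Bgn* rose 1.42-fold, under the fold of 1.5, and *Fmod* and *Omd* differed by 1.08-fold each, without passing (adjusted p = 0.229 and 0.531).

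In cKO the steps were others. From P1 to P6, *Omd*, *Bgn*, *Fmod* and *Prelp* rose by 7.11-, 2.96-, 4.54- and 5.46-fold, while *Dcn* fell 34.4-fold and *Lum* was at least 351-fold lower (11% of all genes rose and 10.4% fell). From P6 to P8, *Dcn* and *Aspn* rose 17.3- and 15.5-fold and *Lum* was at least 163-fold higher, while *Ogn*, *Omd*, *Fmod* and *Prelp* fell by 1.94-, 2.94-, 2.92- and 3.80-fold (11.9% and 12.2% of all genes rose and fell). *Prelp* and *Dcn* thus moved against each other at both steps of the cKO series. The libraries of all 6 groups enter both the genotype and the age comparisons, so these share samples.

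Neighbours on a chromosome did not all move alike. On chromosome 10, *Dcn*, *Lum* and *Epyc* had the same order of genotypes on each day, with *Kera* too low to rank at P1 and P6. On chromosome 13, *Aspn* was 36.7-fold lower at P8, *Ogn* 8.93-fold, and *Omd* between them 2.88-fold. On chromosome 1, *Prelp* rose and *Fmod* fell at P8, 115.8 kb apart, with the predicted gene *Gm1627* between them. *Gm1627* was read at no more than 1.68 CPM in any library and rose in cKO at P1, from no read in WT to 0.340 and 0.351 CPM (adjusted p = 0.00222), and at P6 (log2 2.92 ± 0.52; adjusted p = 0.00398). Of the genes within 250 kb that are not members, *Gm1627* included, 1 was tested on chromosome 10, *Gm10754*, which was lower in cKO at P8. *Gm10754* entered the test through the P8 WT libraries and its reads may belong to *Epyc*, so its P8 difference is a description. On chromosome 13, 2 of 8 tested rose and 1 fell at P8. On chromosome 1, 1 of 11 rose and 3 fell, and none of 6 on the X chromosome was called at P8. Of all genes tested, 11.2% rose and 8.37% fell at P8. At P1, 2 rose on chromosome 1, *Gm1627* and *Optc* (4.01% of all genes). At P6, the same 2 rose and 1 fell on chromosome 1, 1 rose on chromosome 13 and 1 fell on the X chromosome. Of all genes, 7.16% rose and 6.38% fell at P6. *Optc* on chromosome 1 and *Ecm2* on chromosome 13 are counted again below among the other genes of the family.

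**Figure D3:**
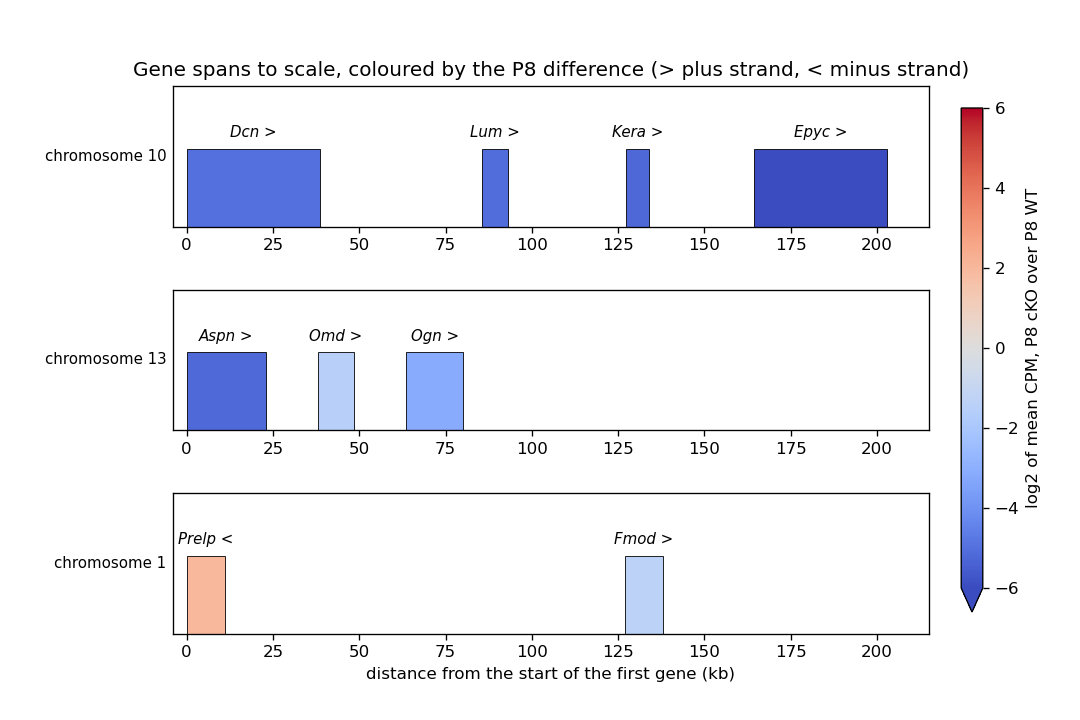
Spans of 9 of the genes, drawn to scale in kb from the start of the first gene of each stretch (> for the plus strand, < for the minus strand); colour is the log2 ratio of the P8 cKO mean over the P8 WT mean, and *Epyc* lies past the end of the colour scale. Blue genes were lower in cKO, and *Prelp* is the gene in red.

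Per kb of exon, the make-up of the family's transcripts differed between groups. Summed over the 10 genes, their reads were 0.0805% and 0.0804% of all counts in P1 WT, 0.143% and 0.141% in P1 cKO, 0.344% and 0.331% in P6 WT, 0.465% and 0.433% in P6 cKO, 0.585% and 0.603% in P8 WT and 0.273% and 0.275% in P8 cKO. *Prelp* led in P1 WT with 89.5 CPM per kb, followed by *Ogn* with 52.0 and *Fmod* with 44.5. In P6 WT, *Bgn* led with 313 CPM per kb and in P6 cKO *Prelp* with 544. In P8 WT, *Bgn* (445 CPM per kb), *Ogn* (261), *Dcn* (248), *Fmod* (151) and *Epyc* (121) were the first 5, whereas in P8 cKO *Bgn* (336) and *Prelp* (143) were the first 2.

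Ratios between members were also taken within each library. Per 1000 *Dcn* reads, *Epyc* had no read in P1 WT, which allows up to 2.42 there, and 20.7 and 18.2 reads in P1 cKO. It had 98.9 and 113 in P6 WT and none in P6 cKO, where only 127 and 211 *Dcn* reads were counted and up to 8.88 is allowed, and 217.6 and 211 in P8 WT against 16.4 and 10.6 in P8 cKO. Relative to *Dcn*, *Epyc* was thus higher in cKO than in WT at P1 and lower at P6 and P8. *Lum* had 57.0 and 116 reads per 1000 *Dcn* reads in P1 WT and 99.0 and 82.0 in P1 cKO, which overlapped. At P6 it had 41.5 and 47.2 in WT and none in cKO, lower as for *Epyc*, and at P8 it had 89.3 and 88.9 in WT and 79.4 and 87.6 in cKO. The ratio of *Prelp* to *Fmod* was 2.21 and 2.19 in P1 WT, 0.853 in both P6 WT libraries and 0.263 and 0.265 in P8 WT. In the cKO libraries it was 2.81 and 2.95 (P1), 3.38 and 3.56 (P6) and 2.60 and 2.72 (P8), above WT each time.

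**Figure D4:**
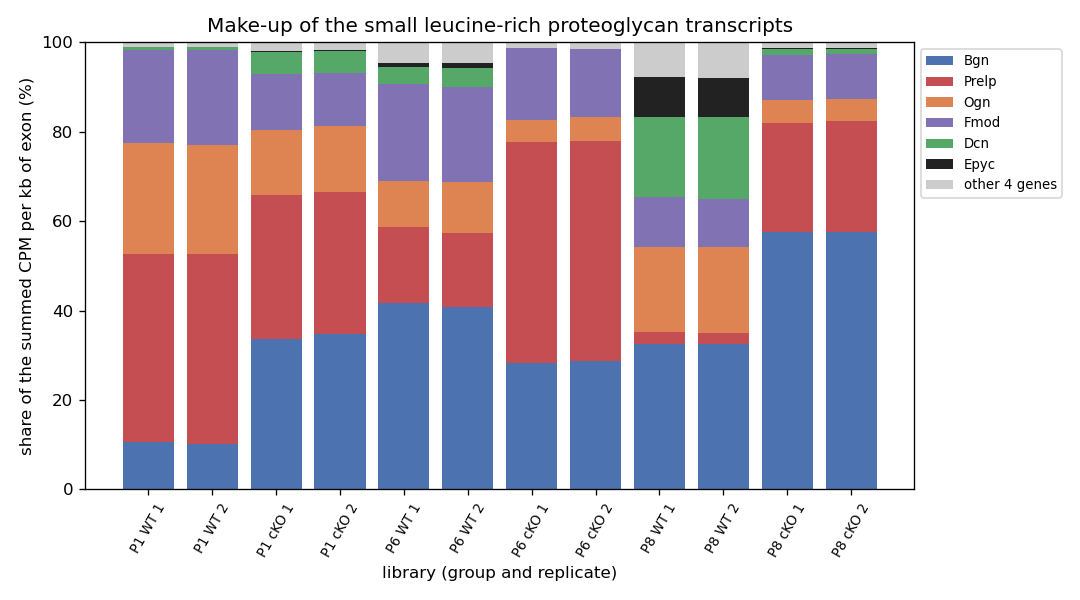
Share (%) of each gene in the summed CPM per kb of exon of the 10 genes, in each of the 12 libraries, stacked to 100%. *Prelp* is at 41.9% and 42.6% in P1 WT and at 2.68% and 2.64% in P8 WT, while *Dcn* (17.9% and 18.2%) and *Epyc* (8.90% and 8.75%) have their largest shares in P8 WT.

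The profile of *Epyc* over the 12 libraries was set beside those of the 17937 other genes. The measure was the root mean square difference of log2 CPM profiles centred on their own mean. A prior count of 0.5 entered the log2 CPM, and distances and ranks depend on it, since *Epyc* had no read in 4 libraries. The 6 nearest outside the family were *Atp6v0a4* (1.70), *Ptgdr* (1.81), *Igf2* (1.91), *Lrrc17* (1.95), *Prdm6* (1.98) and *Slc26a7* (2.47), beside a median of 5.61. *Igf2*, a growth factor of fetal growth, had 0.603 and 9.81 CPM in the P1 WT libraries, which lay far apart, and 233 and 235 CPM in P1 cKO. It had 1038 and 1062 CPM in P6 WT against 3.87 and 2.96 CPM in P6 cKO, and 5075 and 3058 CPM in P8 WT against 46.8 and 41.2 CPM in P8 cKO. *Ptgdr*, a prostaglandin D2 receptor, stood at 48.6 and 52.8 CPM in P8 WT and at 0 and 0.166 CPM in P8 cKO. Within the family *Lum* (2.76), *Dcn* (2.76) and *Aspn* (2.77) were nearest, at ranks 14, 15 and 16, and *Prelp* was at rank 17284. The measure describes these 12 libraries and shares their groups.

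Other genes of the family in the table were 4 of 7 listed. *Optc* (opticin), which lies beside *Prelp*, was read at 1.99 and 2.32 CPM in P1 WT against 4.66 and 3.44 CPM in P1 cKO, 3.03 and 2.19 against 10.2 and 8.79 CPM at P6, and 0.925 and 0.970 against 6.78 and 6.13 CPM at P8. The cKO libraries were above WT each time, and *Optc* rose on all 3 days (log2 0.91 ± 0.22, 1.86 ± 0.22 and 2.77 ± 0.23; adjusted p = 0.0302, 0.000223 and 1.58e-05). *Podn* (podocan) fell at P6 (log2 -1.92 ± 0.10; adjusted p = 1.53e-06) and P8 (log2 -2.12 ± 0.10; adjusted p = 4.93e-07), and *Ecm2*, beside *Aspn*, fell at P8 (log2 -1.89 ± 0.18; adjusted p = 3.30e-05). *Tsku* (tsukushi) rose at P1 and fell at P6 and P8. In all, 2 of the 4 tested rose at P1, where 4.01% of all genes tested rose and 0.892% fell. At P6, 1 rose and 2 fell (7.16% and 6.38% of all genes), and at P8, 1 rose and 3 fell (11.2% and 8.37%).

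Genes that build the glycosaminoglycan chains of these proteins were 26 of 28 listed, of which none was called at P1, 3 rose and 4 fell at P6, and 4 rose and 6 fell at P8. Of all genes tested, 7.16% rose and 6.38% fell at P6 and 11.2% and 8.37% at P8, shares that stand beside each list below as well, with 4.01% and 0.892% at P1. The median log2 change of the 26 was 0.07, -0.17 and -0.06 on the 3 days. *Csgalnact1*, which starts chondroitin chains, fell from 34.3 to 16.7 CPM at P6 (log2 -1.04 ± 0.28; adjusted p = 0.0248) and from 85.5 to 14.5 CPM at P8 (log2 -2.56 ± 0.30; adjusted p = 0.000138). The sulfotransferase gene *Chst15* fell at P6 (log2 -2.17 ± 0.09; adjusted p = 3.91e-07) and *Chsy1*, a chondroitin synthase, at P8 (log2 -1.24 ± 0.06; adjusted p = 4.18e-07). *Chst3* and *Chst1* rose at P6 by 1.02 and 0.87 (log2), and *Chst7* and *Xylt2*, the latter placing the first sugar of the chain, rose at P8 by 1.16 and 1.12.

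Of 13 growth factors and receptors that these proteins bind, 2 rose at P1, and 4 rose and 3 fell at P6 and again at P8. *Egfr*, a receptor that decorin binds, was read at 314 CPM in P6 WT and 87.4 CPM in P6 cKO, and at 917 and 109 CPM at P8 (log2 -1.85 ± 0.06 and -3.07 ± 0.06; adjusted p = 4.72e-08 and 2.55e-09). *Thbs1*, a matrix protein, rose at P1 (log2 0.82 ± 0.04; adjusted p = 1.22e-06) and P6 (log2 1.02 ± 0.04; adjusted p = 9.88e-08). *Bmp4* rose at P1 by 0.89 and fell at P8 by 1.19 on the log2 scale, *Tgfb1* rose at P8 by 0.87, *Kdr* fell at P6 by 0.90, and *Bmp2*, a low gene, rose at P6 and P8.

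Of 8 proteases that cut them, 6 rose at P1, 1 rose and 3 fell at P6, and 3 fell at P8. *Mmp2*, a gelatinase, stood at 26.9 CPM in P1 WT and 164 CPM in P1 cKO, at 463 and 229 CPM at P6 and at 587 and 241 CPM at P8 (log2 2.60 ± 0.06, -1.01 ± 0.06 and -1.28 ± 0.06; adjusted p = 2.33e-08, 2.18e-06 and 2.98e-07). *Mmp13* rose at P1 by 2.07 and *Mmp3* at P6 by 2.59, and *Tll1*, of the tolloid family that trims these proteins, fell at P6 by 3.07 and at P8 by 1.78 (log2). Of 10 fibrillar and beaded collagens, the partners of these proteins, 6 rose at P1, 2 rose and 7 fell at P6, and 8 fell at P8. *Col3a1* rose from 32.3 to 369 CPM at P1 (log2 3.52 ± 0.06; adjusted p = 1.06e-08) and fell from 1209 to 24.4 CPM at P6 (log2 -5.63 ± 0.07; adjusted p = 7.47e-10), *Col6a3* fell at P6 (log2 -4.19 ± 0.10), and *Col6a2* and *Col6a1* fell at P8 (log2 -3.28 ± 0.06 and -2.83 ± 0.05). *Col14a1* and *Col5a2* rose at P6 by 1.13 and 0.66 on the log2 scale.

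Markers of meningeal fibroblasts moved in the same directions as *Dcn*, *Lum* and *Epyc*. Of the 10 markers tested (of 12 listed), 9 rose in cKO at P1, 9 fell at P6 and 9 fell at P8, with medians of 2.48, -2.84 and -1.87 (log2). Their summed level was 369 to 391 CPM in P1 WT and 2571 to 2605 CPM in P1 cKO, 7586 to 7650 against 2455 to 2637 CPM at P6, and 27442 to 29668 against 8165 to 8410 CPM at P8. None of the 10 was at 0 in any group. Their most abundant members were *Col1a1* and *Col1a2*, which also count among the collagens above, as does *Col3a1* of this list. *Igf2* is in both this list and the nearest genes of *Epyc*. The P8 fall of the sum, which *Col1a1* and *Col1a2* lead, was smaller than that of *Dcn* or *Epyc*, while *Igf2* fell from 4066 to 44.0 CPM. The part of the markers in the changes of the 10 genes was not tested.

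**Figure D5:**
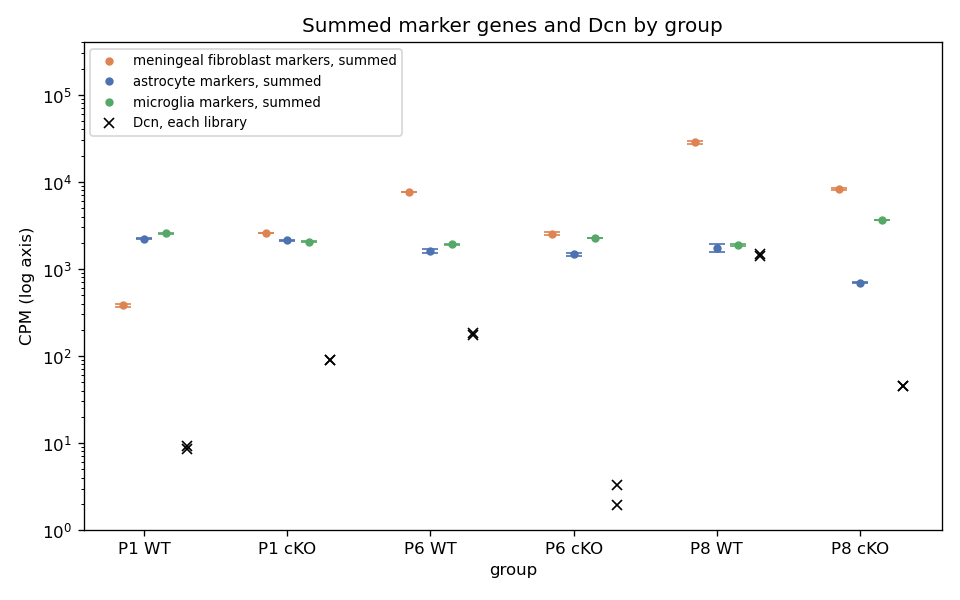
Summed CPM of the markers of meningeal fibroblasts, astrocytes and microglia in each group (log axis; dot, mean; ticks, the 2 libraries), with the CPM of *Dcn* in each library as crosses. The fibroblast sum rises from 369 to 391 CPM in P1 WT to 27442 to 29668 CPM in P8 WT, and *Dcn* is lowest in P6 cKO.

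In the lists of other cell types, a smaller part of the markers rose in cKO at P1 or fell at P6 and P8. Single markers in them, such as *Cdh5* and *Tnmd* below, had the genotype order of *Dcn* on each day. Of the 9 astrocyte markers, 1 rose at P1, 1 fell at P6 and 5 fell at P8, and their sum was 1566 to 1949 CPM in P8 WT and 687 to 702 CPM in P8 cKO; *Aqp4*, a water channel, went from 447 to 111 CPM there and *Gfap* from 378 to 179.9 CPM. Of 7 microglia markers, 2 fell at P1, 1 fell at P6, and 4 rose and 1 fell at P8, with a sum of 1856 to 1921 CPM in P8 WT and 3646 to 3666 CPM in P8 cKO; *C1qa*, a complement component, was among the most abundant of them. Of 8 mural cell markers, led by *Acta2* and *Tagln*, 2 rose at P1, 1 rose and 4 fell at P6, and 1 rose and 2 fell at P8. Of 6 endothelial markers, led by *Slco1a4* and *Cdh5*, 3 rose at P1, 2 rose and 3 fell at P6, and 2 rose and 2 fell at P8. *Cdh5* had 1.63 CPM in P1 WT and 13.5 CPM in P1 cKO, 56.4 against 0.859 CPM at P6, and 133 against 9.84 CPM at P8. *Slco1a4* went the other way at P6, with 60.9 CPM in WT and 103 CPM in cKO.

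Of 3 choroid plexus and ependymal markers, led by *Foxj1* and *Folr1*, 1 rose at P1, 2 rose and 1 fell at P6, and 2 rose at P8. Of 5 oligodendrocyte lineage markers, led by *Olig1* and *Mbp*, none was called at P1, 2 fell at P6, and 1 rose and 2 fell at P8. Of 2 neuron markers, *Syt1* and *Tubb3*, 1 rose on each day. Of 5 cartilage, bone and tendon markers, 2 rose at P1, 2 rose and 1 fell at P6, and 2 fell at P8. *Tnmd*, a tendon marker, had 0.0246 CPM in P1 WT and 1.64 CPM in P1 cKO. It had 96.6 CPM in WT against 0.140 CPM in cKO at P6, and 130 against 32.9 CPM at P8. *Col2a1*, the collagen of cartilage where *Epyc* is known, instead had 146 CPM in P6 WT and 565 CPM in P6 cKO. In P8 WT, where *Epyc* was highest, *Col2a1* stood at 44.3 CPM.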

How the data were processed

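Bulk RNA-seq of primary mouse astrocytes was used, with 2 libraries in each of 6 groups. The authors mapped reads with Hisat2 to GRCm38 (mm10 in the submitters' processing notes) and deposited whole-number counts per gene, without normalization. Which program, annotation and strand setting made the counts is not stated there, and reads shared by overlapping genes could be given to either. Positions and exon lengths came from GENCODE vM21, which held 18861 of 18903 identifiers.

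Counts were normalized by TMM and tested in R 4.3.3 with the quasi-likelihood test of edgeR 4.0.16 on all 12 libraries, with 1 mean per group, after its filter on low counts. Genes were called at a Benjamini-Hochberg adjusted p below 0.05 over the 17938 genes tested and a fold of at least 1.5, and differences of genotype differences by adjusted p alone. CPM are counts scaled by TMM-adjusted library size. A group without reads was given 3 counts as its floor. The labels call the 2 libraries of a group biological replicates without tying them to animals or cultures, so p-values measure the spread between these libraries, and 2 against 2 alone could not give an exact permutation p under 0.333. The fits were tested on simulated data.

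The named genes were the 10 members, the 6 genes most like *Epyc*, genes within 250 kb that overlap or lie between members, in each pathway list the 2 largest rises and falls called each day among genes averaging 1 CPM or more, and the 2 most abundant markers of each cell type. One of these markers is not reported here. Members and lists were chosen with earlier results of these data known. Alternatives were DESeq2 1.42.0 and its size factors, no filter, unadjusted p, a fold of at least 2, a replicate block, each day alone and each library left out.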

Additional observations from a re-analysis of the deposited data

Results flagged for a closer look

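The cKO-minus-WT difference itself changed between days for the genes named here (edgeR interaction terms, adjusted p below 0.05 over all genes). From P1 to P6 the log2 difference changed by -9.43 for *Dcn*, -15.4 for *Lum*, -0.36 for *Ogn*, -9.51 for *Aspn*, -2.27 for *Bgn* and 1.94 for *Prelp*. From P6 to P8 it changed by 1.09 for *Dcn*, 6.96 for *Lum*, -2.63 for *Ogn*, 2.75 for *Aspn*, -1.67 for *Omd*, -0.41 for *Bgn* and -1.43 for *Fmod*. From P1 to P8 it changed by -8.34 for *Dcn*, -8.48 for *Lum*, -2.98 for *Ogn*, -6.77 for *Aspn*, -1.72 for *Omd*, -2.68 for *Bgn*, -1.13 for *Fmod* and 1.82 for *Prelp*. The values of *Lum* that use P6 depend on the prior count of the fit, because no read was counted in P6 cKO, and are not sizes.

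By group means, *Epyc* was at least 81.9-fold higher in cKO at P1, at least 815-fold lower at P6 and 505-fold lower at P8. On each day both cKO libraries lay on that side of both WT libraries. The difference between these days was not tested, because *Epyc* was chosen for it.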

How the results depend on the processing

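The counts of called genes among the 9 stayed within 1.5 times of those given in every alternative run, including the replicate block, which gave 3, 4 and 7 at P1, P6 and P8. Leaving out 1 library gave 3 to 4 at P1, 4 at P6 and 7 to 8 at P8, and for the differences between days 6 to 7 (P6 against P1), 7 (P8 against P6) and 8 (P8 against P1); for the age steps it gave 7 and 5 in WT and 6 and 7 in cKO. Where 1 library remained in a group, its spread was taken from the other groups. The replicate numbers did not pair the samples (correlations of same-numbered deviations from -0.063 to 0.044). The block changed 1 call, the change of the *Fmod* genotype difference from P1 to P6 (0.31, adjusted p = 0.0461 in edgeR with the block). DESeq2 (0.32) and the fit without P6 cKO replicate 2 (0.40) also called it.

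Of 1435 alternative values for single genes, 14 changed sign, none of them called. The genotype change of *Kera* from P6 to P8 was -0.59 in DESeq2 and -5.22 to 1.12 with 1 library left out (below 0 without P6 WT replicate 2, P8 WT replicate 1 or P8 cKO replicate 1). With 1 library left out, *Aspn* from P1 to P6 in cKO ran from -0.59 to 0.93, *Omd* from P6 to P8 in WT from -0.027 to 0.27 and its genotype change from P1 to P6 from -0.19 to 0.10. At P6, *Bgn* ran from -0.043 to 0.055 and *Fmod* from -0.024 to 0.17. *Aspn* at P1 ran from 0.61 to 2.13 and was called at 2.13, without P1 cKO replicate 2. *Kera* at P8 ran from -9.12 to -4.20, and at -5.22, without either P6 WT library, it crossed the threshold it missed with all libraries. It entered the test through the P8 WT libraries alone, so these values describe it and no call is drawn from them. The causes were not tested. In 5 fits *Kera* had no read on either side and gave no value. Depth limits *Kera*, and *Aspn* at P1.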
